A study of Gallus gallus with 6 samples.

Results

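Cathepsins are the proteases of the lysosome and of related compartments, and they are grouped by the residue that cuts the peptide bond: cysteine, aspartic acid or serine. They are made as inactive precursors, sorted to the lysosome largely by the mannose 6-phosphate tag, activated there at acid pH and held in check by cystatins and by some serpins. Monocytes and macrophages use them to degrade what they engulf and to prepare antigens. The members were all probe sets (groups of short probes that read 1 transcript on the array) whose single gene symbol in the platform annotation was CTS, 1 capital letter and an optional digit. The rule found 18 of the 38439 probe sets that are not array controls, and they stand for 12 genes of 13051: CTSA, CTSB, CTSC, CTSD, CTSE, CTSG, CTSH, CTSK, CTSO, CTSS, CTSV and CTSZ. CTSV is the gene for which the RefSeq table of assembly GRCg7b lists CTSL, CTSL1 and CTSL2 as synonyms.

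RNA came from primary monoblasts, precursors of monocytes and macrophages, of Brown Leghorn chickens. Their transforming gene was v-myb, the oncogene of avian myeloblastosis virus, which encodes a transcription factor. It was wild type in 1 group and a mutated version named deltaP in the other, and the cells were grown in culture with bovine and chicken serum. Each group had 3 biological replicates, each hybridized to 1 Affymetrix chicken array, so 6 arrays were compared. The title of the series points to the leucine zipper of v-Myb. Which residues deltaP changes, and what cultures with the same replicate number share, is not stated in the labels.

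The values are on a log2 scale. In every probe set a wild type array and the deltaP array of its number summed to the same value for all 3 numbers, to within 0.00013 log2 units, so what the arrays of a pair share had been taken out of the deposited values. The value of a single array is therefore not its measured level, and the data hold 3 independent differences per probe set, deltaP minus wild type in pairs 1, 2 and 3. Errors are the SD of these 3 differences. With such values, groups that do not overlap are the same as a difference of 1 sign in all 3 pairs. A probe set was tested when its log2 value was over 4 on at least 3 arrays, which kept 16199 (42.1%).

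The cell type and the arrays were checked first. Of 20 annotated monocyte and macrophage markers 16 passed the filter, among them SPI1, a transcription factor gene of the myeloid lineage (on average 13.56 in wild type and 13.68 in deltaP), and the receptor gene CSF1R (12.82 and 12.51), while CD36, MARCO, MMP9 and MRC1 did not pass. In deltaP 5 of the 16 were higher in the mean (49.4% of all probe sets tested) and 11 lower, with a median log2 difference of -0.2. Of these 16, 2 were higher and 6 lower in all 3 pairs (16.1% and 16.4% of all probe sets tested). Their mean level ran from 11 to 11.29 on the wild type arrays and from 10.86 to 11.16 on the deltaP arrays. Since each pair sums to the same value, the deltaP range of a list mirrors its wild type range. Such ranges, here and below, show no independent spread within a group. The median difference of the monocyte and macrophage markers was 0.16, -0.07 and -0.29 in pairs 1, 2 and 3. At an unadjusted p under 0.05 in limma 3 were lower (5.66% of all) and 0 higher (3.6% of all). These 3 were NCF1C, a subunit gene of the phagocyte oxidase (-0.62), the integrin gene ITGB2 (-0.33) and the transcription factor gene IRF8 (-0.52).

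Of 10 annotated markers of heterophils, which are the neutrophils of birds, 9 passed, with a mean level over these genes from 11.4 to 11.74 on the wild type arrays and from 11.11 to 11.44 on the deltaP arrays. By the unadjusted p 2 of the 9 were higher (3.6% of all probe sets) and 3 lower (5.66% of all). The calcium-binding protein gene S100A12 differed by 2.17 log2 units (deltaP minus wild type) and the lipocalin gene EXFABP by 1.08, while the defensin genes AvBD4 and AvBD6 differed by -2.31 and -1.2 and the cathelicidin gene CATH1 by -0.75, each with 1 sign in all 3 pairs. The share of genes above the filter was 3 of 17 for fibroblast markers, 5 of 12 for lymphocyte markers, 4 of 6 for erythroid and thrombocyte markers and 1 of 8 for osteoclast markers. Those below it included the collagen genes COL1A1 and COL1A2 and the stromal genes DCN and PDGFRA, and of the lymphocyte genes CD4, CD8A, CD79B and PAX5. Over the genes that passed, the mean fibroblast level ran from 7 to 7.21 in wild type and from 6.58 to 6.79 in deltaP. That mean joined unlike wild type levels, 11.09 for FN1, 4.18 for COL3A1 and 6.15 for COL6A3. The lymphocyte level, also over the genes that passed, ran from 8.65 to 9.47 in wild type and from 8.13 to 8.96 in deltaP. The erythroid and thrombocyte level, over the genes that passed, ran from 7.36 to 8.69 and from 7.12 to 8.45. This mean too joined unlike wild type levels, 12.24 for F13A1, 7.71 for TFRC, 6.24 for HBA1 and 5.71 for HBAD. In the mean 49.4% of all probe sets were higher in deltaP. Of the fibroblast genes 2 were higher and 1 lower, and of the lymphocyte genes 2 were higher and 3 lower. Of the erythroid and thrombocyte genes 2 were higher, among them TFRC (0.76), and 2 lower. In each of these 3 lists 1 gene was lower in all 3 pairs (16.4% of all probe sets) and 0 were higher in all 3 (16.1% of all). The mean log2 difference was -1.51 for FN1, which encodes fibronectin, -3.06 for TARP, a T cell receptor gamma reading frame, and -1.1 for F13A1, a coagulation factor gene that macrophages also express. None of the markers passed the adjusted threshold. The part of other cell types in the cathepsin values was not tested, and in bulk RNA fewer cells of a type and less RNA per cell cannot be told apart. In pair 3 the poly-A control RNAs had a median difference of 0.71 log2 units in favour of the deltaP array, against -0.1 in pair 1 and -0.07 in pair 2.

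Of the 18 cathepsin probe sets, 12 passed the filter and stood for 10 genes. These 12 were over the filter value on all 6 arrays, with 6.64 as their lowest value, so none of them passed through 1 group alone. CTSD, the aspartic protease, was higher in deltaP by both of its tested probe sets, and CTSC, CTSZ and 1 of 2 CTSB probe sets, all cysteine proteases, were higher in all 3 pairs by smaller amounts. CTSO was lower in all 3 pairs. The other tested cathepsin probe sets changed sign between pairs. No cathepsin had an adjusted p under 0.05 in limma with a replicate block, over all 16199 probe sets, and no other probe set had one either (0.0%).

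**Figure D1:**
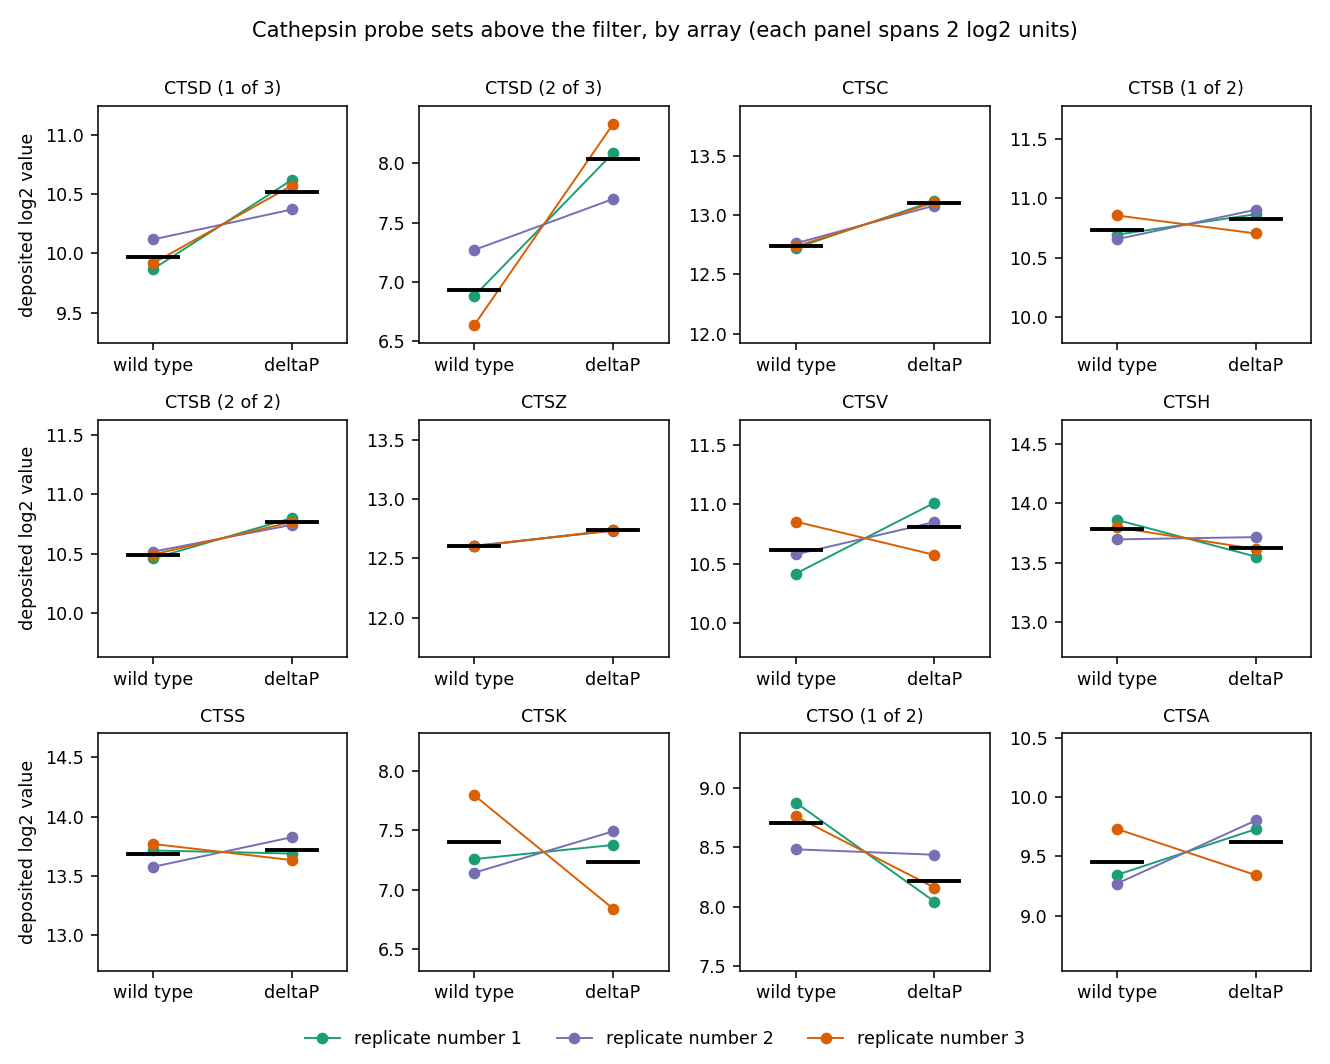
Deposited log2 values of the 12 cathepsin probe sets above the filter, 1 panel each, with the wild type arrays on the left and the deltaP arrays on the right. Lines join arrays of the same replicate number, black bars are group means (n = 3), and probe sets of a gene are numbered from the brightest. Each panel spans 2 log2 units. The groups do not overlap for CTSD, CTSC, CTSZ, CTSO and the second CTSB probe set.

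Counts of members are read against the whole array. At an unadjusted p under 0.05 in limma, 5 of the 12 cathepsin probe sets passed, against 9.26% of all probe sets tested. Of these 5, 4 were higher in deltaP (CTSB, CTSC and both CTSD probe sets), against 3.6% of all, and 1 was lower (CTSO), against 5.66%. A difference of 1 sign in all 3 pairs was found for 6 of 12, against 32.5% of all: 5 were higher (16.1% of all) and 1 lower (16.4% of all). The median log2 difference over the 12 was 0.15, and over all probe sets tested it was -0.0033. The probe sets of CTSB share a gene, as do those of CTSD, so the 12 values are not independent. The 12 were also brighter than the probe sets tested as a whole (median log2 level 10.67 against 7.8). Their pair differences spread less (median SD 0.24 against 0.29). The shares over all probe sets are thus not those of probe sets of like brightness.

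The pairs differed. In pair 1, 9 of the 12 cathepsin probe sets were higher in deltaP (51.8% of all probe sets) with a median log2 difference of 0.26. In pair 2, 11 of 12 were higher (53.2% of all) with a median of 0.25. In pair 3, 5 of 12 were higher (44.9% of all) and the median was -0.14. Pair 3 is also the pair in which the poly-A control RNAs differed most between the arrays. The hybridization controls had medians of 0.04, -0.18 and 0.5 in pairs 1, 2 and 3. Marker lists varied by pair too. Their medians were -0.53, 0.6 and -1.63 for lymphocyte markers and 0.87, 0.13 and -2.33 for erythroid and thrombocyte markers. For heterophil markers they were -0.31, -1.21 and 0.05, with pair 2 farthest from 0. The part of all this in the cathepsin values was not tested. The 5 that were higher in pair 3 were the 2 CTSD probe sets, CTSC, CTSZ and the second CTSB probe set.

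**Figure D2:**
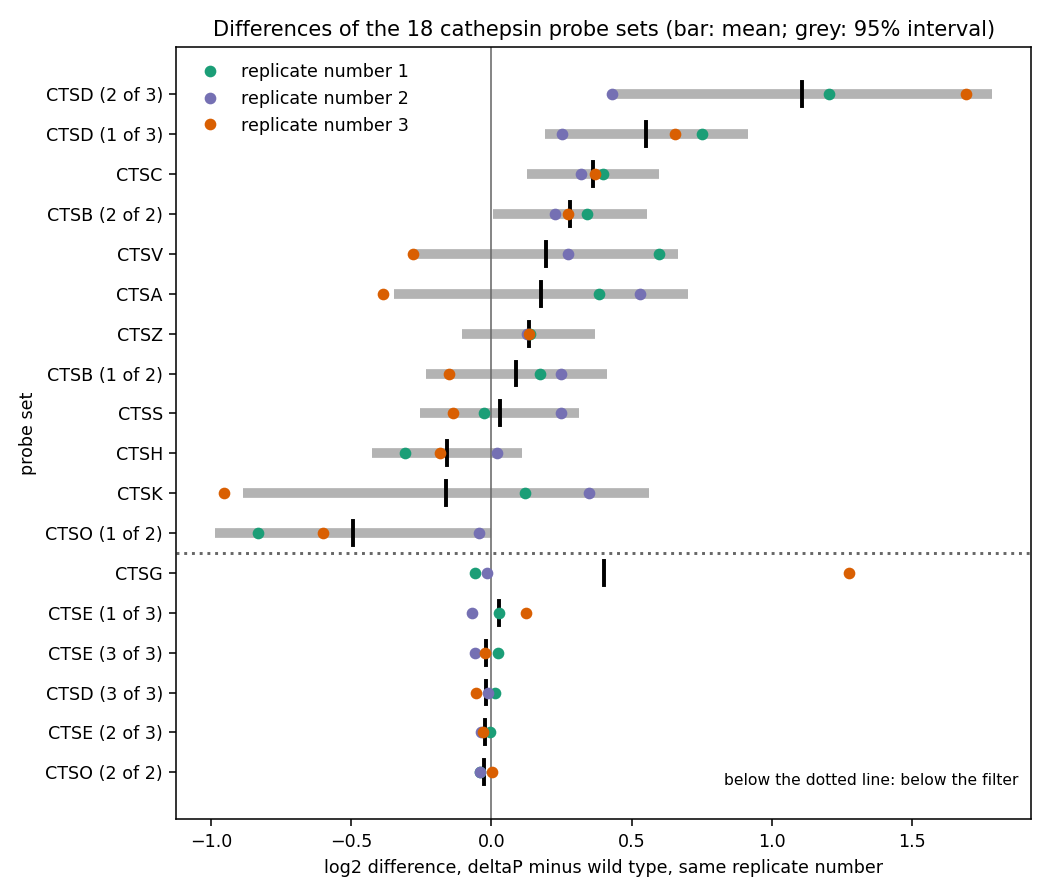
Log2 difference, deltaP minus wild type, for each of the 18 cathepsin probe sets. Points are the 3 same-numbered pairs, black bars their mean and grey bands the 95% confidence interval of limma with the replicate block. The 6 probe sets below the dotted line did not pass the filter and have no interval. CTSD lies farthest to the right among the tested members and CTSO farthest to the left, while CTSK, CTSA, CTSV and the first CTSB probe set have pair 3 on the other side of 0 from pairs 1 and 2.

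The aspartic cathepsins were CTSD and CTSE. CTSD, an endopeptidase of the lysosome, had 3 probe sets for 1 gene (Entrez gene 396090). The brightest of them had values of 9.87, 10.12 and 9.92 in wild type and 10.62, 10.37 and 10.57 in deltaP for replicates 1, 2 and 3. All 3 deltaP values were above all wild type values. The log2 difference was 0.55 ± 0.26 (SD, n = 3 pairs), or 1.47-fold, with a 95% interval from 0.19 to 0.91, and limma gave an unadjusted p of 0.0103 (adjusted p = 0.386).

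The second CTSD probe set had values of 6.88, 7.27 and 6.64 in wild type and 8.09, 7.7 and 8.33 in deltaP. Its groups did not overlap either. The log2 difference was 1.11 ± 0.64 (SD, n = 3 pairs), or 2.16-fold, with a 95% interval from 0.43 to 1.79, and limma gave an unadjusted p of 0.00775 (adjusted p = 0.359). Of all probe sets tested, 1.43% had a larger difference in either direction. In each pair this probe set differed by more than the brighter one, by 0.45, 0.18 and 1.04 log2 units. Both probe sets had their smallest difference in pair 2 (0.25 and 0.43). The third CTSD probe set stayed between 2.1 and 2.15 on every array. The annotation does not say which part of the transcript each reads.

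CTSE, an aspartic protease of endosomes in mammals, was below the filter by all 3 of its probe sets. The highest CTSE value on any array was 2.96, in deltaP replicate 3. Values this low lie where the processing pulls probe sets to a common floor, so they give no level for the gene.

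Among the cysteine cathepsins that trim peptides from an end were CTSC, CTSZ, CTSH and CTSB, which also cuts within chains. CTSC, or dipeptidyl peptidase I, activates the granule serine proteases of mammalian neutrophils and mast cells. It had values of 12.72, 12.76 and 12.73 in wild type and 13.12, 13.08 and 13.11 in deltaP. The groups lay apart and the differences of 0.4, 0.32 and 0.37 were nearly equal. The mean log2 difference was 0.36 ± 0.04 (SD, n = 3 pairs), or 1.28-fold, with a 95% interval from 0.13 to 0.6, and limma gave an unadjusted p of 0.0101 (adjusted p = 0.386). A smaller SD was found for 1.83% of the probe sets tested.

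CTSZ, a carboxypeptidase, had values of 12.6, 12.61 and 12.6 in wild type and 12.74, 12.73 and 12.74 in deltaP. The groups did not overlap, and the differences of 0.14, 0.13 and 0.13 had an SD of 0.0059 log2 units, below that of all but 0.0617% of the probe sets tested. The difference itself was small, 1.1-fold, and 59.2% of probe sets had a larger one. Limma, which draws each SD towards that of probe sets of like brightness, gave an unadjusted p of 0.214 and an interval from -0.1 to 0.37.

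CTSB, an abundant lysosomal protease of macrophages, was read by 2 probe sets that differed in pair 3. The brighter one had values of 10.69, 10.66 and 10.85 in wild type and 10.86, 10.9 and 10.7 in deltaP, so the groups overlapped. Its differences were 0.17, 0.25 and -0.15, with a mean of 0.09 ± 0.21 (SD, n = 3 pairs) and an unadjusted p of 0.519 in limma. The other had 10.46, 10.52 and 10.49 in wild type and 10.8, 10.74 and 10.77 in deltaP, with no overlap. Its differences of 0.34, 0.23 and 0.27 gave a mean of 0.28 ± 0.06 (SD, n = 3 pairs), or 1.21-fold, with an unadjusted p of 0.0468 in limma (adjusted p = 0.53). Its identifier marks it as a kind of probe set that can bind several transcripts, as do those of the tested CTSO and CTSS probe sets. By the brightest probe set alone, CTSB would not count among the members with the same sign in all pairs.

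CTSH, an aminopeptidase, had values of 13.86, 13.7 and 13.8 in wild type and 13.55, 13.72 and 13.61 in deltaP. The groups overlapped, since replicate 2 of deltaP lay above replicate 2 of wild type. The differences were -0.31, 0.02 and -0.18, with a mean of -0.16 ± 0.17 (SD, n = 3 pairs) and a 95% interval from -0.42 to 0.11 in limma.

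The cysteine cathepsins that mainly cut within chains were CTSV, CTSS, CTSK and CTSO. CTSV, of the cathepsin L group, had values of 10.42, 10.58 and 10.86 in wild type and 11.01, 10.85 and 10.58 in deltaP. DeltaP was higher in pairs 1 and 2 and lower in pair 3 (0.6, 0.27 and -0.28). The mean of 0.2 ± 0.44 (SD, n = 3 pairs) was smaller than the spread, with an interval from -0.27 to 0.67 in limma.

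CTSS, which in mammals cuts the invariant chain of MHC class II molecules, had values of 13.71, 13.58 and 13.77 in wild type and 13.69, 13.83 and 13.63 in deltaP. Its groups overlapped and its mean difference was 0.03 ± 0.2 (SD, n = 3 pairs), with an interval from -0.25 to 0.31, the mean nearest to 0 among the tested members. CTSK, the collagen-cutting protease of mammalian osteoclasts, is the neighbour of CTSS in the RefSeq table of GRCg7b. It had values of 7.26, 7.14 and 7.79 in wild type and 7.38, 7.49 and 6.84 in deltaP. Its differences were 0.12, 0.35 and -0.95, so that replicate 3 alone made its mean negative (-0.16 ± 0.69, SD, n = 3 pairs). Without that pair the mean was 0.23. The osteoclast markers ATP6V0D2, CALCR, DCSTAMP, ITGB3, MMP9, NFATC1 and OCSTAMP were below the filter, and TNFRSF11A passed it.

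CTSO, a cysteine protease of less known function, was the 1 tested member lower in all 3 pairs. Its brighter probe set had values of 8.88, 8.48 and 8.76 in wild type and 8.04, 8.44 and 8.16 in deltaP. The groups were apart by a small margin, since in pair 2 the difference was -0.05, against -0.83 in pair 1 and -0.6 in pair 3. The mean was -0.49 ± 0.4 (SD, n = 3 pairs), or 1.41-fold lower, with an unadjusted p of 0.0496 in limma (adjusted p = 0.538). The second CTSO probe set was below the filter, between 2.64 and 2.68 on every array.

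The serine proteases were CTSA and CTSG. CTSA, a carboxypeptidase that in mammals also protects the lysosomal enzymes neuraminidase and beta-galactosidase, had values of 9.34, 9.27 and 9.73 in wild type and 9.73, 9.8 and 9.34 in deltaP. As for CTSV, deltaP was higher in pairs 1 and 2 and lower in pair 3 (0.38, 0.53 and -0.39), and the mean of 0.18 ± 0.49 (SD, n = 3 pairs) was smaller than the spread. CTSG, a granule protease of mammalian neutrophils, was below the filter. Its values were 2.42, 2.4 and 1.76 in wild type and 2.36, 2.39 and 3.03 in deltaP, so its mean difference came from pair 3 alone.

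**Figure D3:**
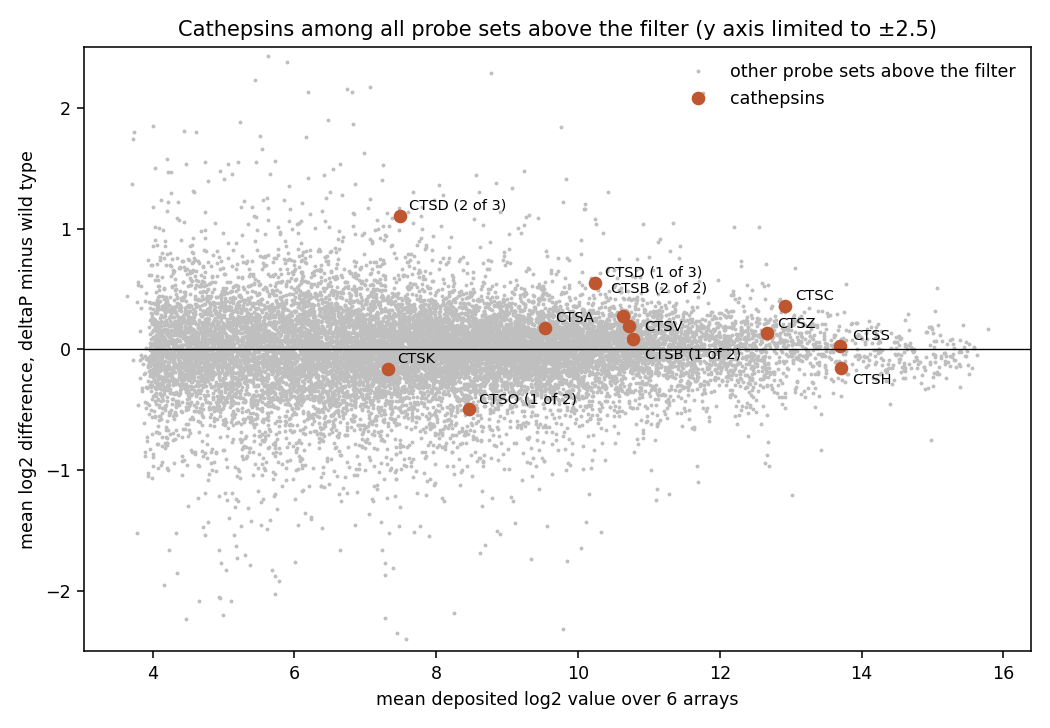
Mean log2 difference, deltaP minus wild type, against the mean deposited log2 value over 6 arrays for the 16199 probe sets above the filter (grey) and the 12 cathepsin probe sets (orange, named). The vertical axis ends at ±2.5 and leaves out 15 probe sets. The second CTSD probe set lies farthest from 0 among the cathepsins, at 1.11, and CTSO is the lowest, at -0.49.

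A fit without the replicate block, which treats the 6 values as independent (4 residual degrees of freedom in place of 2), called 4 of the 12 cathepsin probe sets, against 6.91% of all. These were both CTSD probe sets, CTSC and the second CTSB probe set, all higher in deltaP (2.8% of all), with adjusted p from 0.0112 to 0.044 in limma. The fit with the block called none of them. On simulated tables without any change, the fit without the block called 462 probe sets on average, and the fit with it 0.

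The genes with differences nearest to those of the second CTSD probe set, the cathepsin with the smallest p, were SOCS1, ZNF503, FAM189A2, NT5E and PLEKHA7. Likeness was the Euclidean distance over the 3 pair differences, read on the brightest probe set of each other gene. It ran from 0.19 to 0.53 log2 units for these 5. The brighter CTSD probe set, which had smaller differences, was not used for the search. ZNF503 had a mean of 3.66 in wild type, below the filter value of 4. SOCS1, an inhibitor of cytokine signalling, had differences of 1.16, 0.54 and 1.83, against 1.2, 0.43 and 1.69 for CTSD. With 3 differences per gene, this is a description of likeness in these pairs only.

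Of the pathway genes tested, the largest mean difference was that of an inhibitor, SERPINB10B. Of 15 annotated inhibitor genes 6 passed the filter, and no inhibitor passed the adjusted threshold. By the unadjusted p 2 were higher (3.6% of all probe sets) and 1 lower in deltaP (5.66% of all). The median of the mean log2 differences over the 6 was 0.64. Within pairs 1, 2 and 3 their median was lower, at 0.43, 0.23 and 0.18. SERPINB10B, the chicken serpin MENT that inhibits cysteine cathepsins of the L type and compacts chromatin, had differences of 1.94, 2.41 and 2.5 (mean 2.28 ± 0.3, SD, n = 3 pairs) and an adjusted p of 0.13 in limma. CST7, or cystatin F, which in mammals inhibits CTSC and other cysteine cathepsins of immune cells, was lower in all 3 pairs (-0.93, -1.2 and -0.77), 1.95-fold in the mean, with an adjusted p of 0.277 in limma. CTSC and CST7 thus differed in opposite directions in each pair, and a link between them was not tested. SERPINB6, which in mammals inhibits the serine protease CTSG among others, was higher by 0.96, 0.2 and 0.74. CSTA, a cystatin of the cytosol, was higher by 0.34, 0.13 and 1.45 with an unadjusted p of 0.069.

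**Figure D4:**
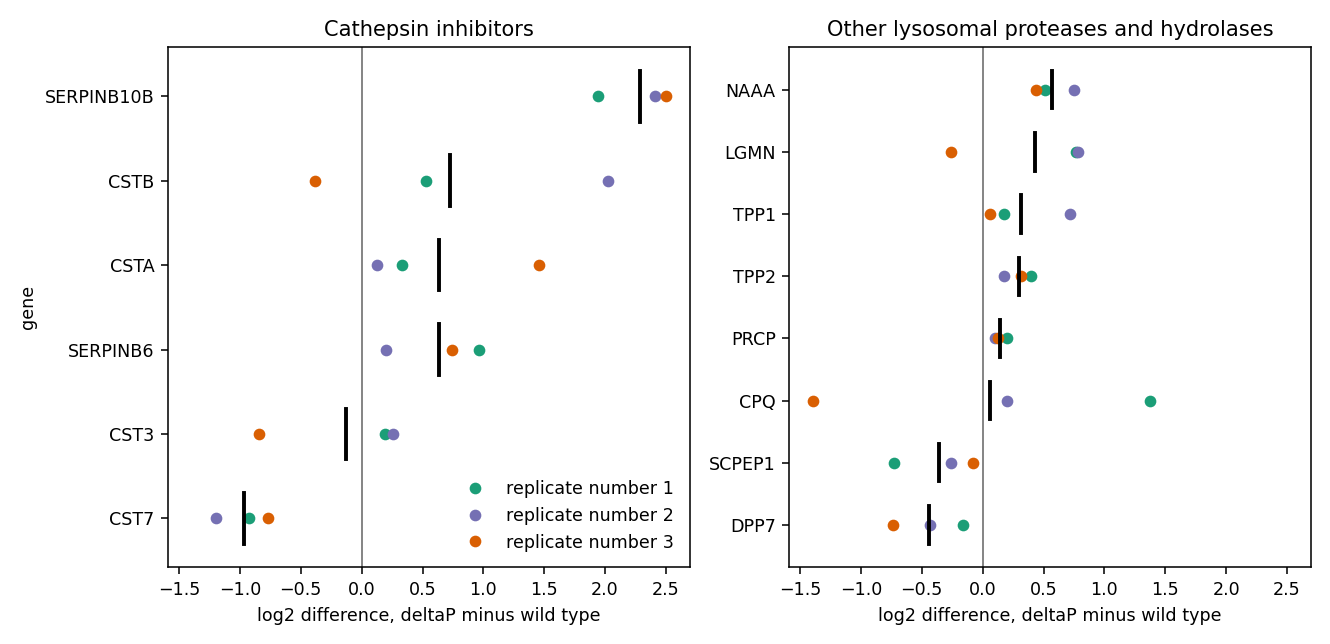
Log2 difference, deltaP minus wild type, of the tested cathepsin inhibitors (left) and the list of other lysosomal proteases and hydrolases (right). Each gene is shown by its brightest probe set. The list on the right also holds the cytosolic peptidase TPP2. Points are the 3 same-numbered pairs and bars their mean. SERPINB10B lies between 1.94 and 2.5 in the 3 pairs, and CST7 lies below 0 in all 3.

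The list of other lysosomal proteases and peptidases, which also holds the cytosolic peptidase TPP2, went both ways. All 8 annotated genes of that list passed the filter. In the mean 6 were higher (49.4% of all probe sets) and 2 lower (median 0.22). In all 3 pairs 4 were higher (16.1% of all) and 2 lower (16.4% of all). NAAA had the smallest p, with differences of 0.51, 0.75 and 0.44, 1.48-fold in the mean and an adjusted p of 0.322 in limma. It is an amidase of fatty acid amides and not a peptidase. The peptidases DPP7 and SCPEP1 were lower in the mean by 1.36-fold and 1.28-fold, and TPP1, a tripeptidyl peptidase, was 1.25-fold higher. None of these 4 passed the adjusted threshold.

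Genes that sort and activate cathepsins, and those of the TFEB family and the lysosomal membrane, had medians near 0. Of 18 tested sorting and activation genes 11 were higher (49.4% of all probe sets) and 7 lower (median 0.06). None had an unadjusted p under 0.05 in limma, against 9.26% of all probe sets. The symbol GGA1 covers separate Entrez genes, and each was counted. LGMN, the protease legumain that cuts several cathepsin precursors, had differences of 0.77, 0.78 and -0.26. CTSA, CTSV, CTSK and the brighter CTSB probe set had the same order of signs. VPS35, GGA2 and VPS29, which carry sorting receptors, had mean differences of 0.29, 0.19 and 0.13. Of 14 tested TFEB family and lysosomal membrane genes 7 were higher (49.4% of all probe sets) and 7 lower (median 0.01). NPC2, a cholesterol carrier of the lysosome, had the smallest p of that list, with differences of 0.6, 0.07 and 0.28 and an unadjusted p of 0.0597, and TMEM175, TMEM106B and LAPTM4A had means of 0.19, -0.32 and 0.11. TFEB, the transcription factor of lysosomal genes, was picked out after its values were seen, with levels of 8.83 in wild type and 8.87 in deltaP on average.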

How the data were processed

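Total RNA of 3 wild type and 3 deltaP samples was turned into biotinylated cRNA and read on Affymetrix chicken arrays, as the labels' protocols state. The deposited table holds 1 log2 value per probe set and array. The submitters' processing notes name Partek 6.4 and GCRMA, a summary that pulls dim probe sets towards a floor and so distorts their differences. Arrays give no count, and their number limits the precision. The replicate number had been removed from the values (within each pair, deviations from the group means correlated at -1), a step not given in the sources used here, so p-values measure only the spread of the within-pair differences.

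DeltaP minus wild type was fitted by limma 3.58.1 in R 4.3.3 (lmFit, then eBayes with a trend on intensity; two-sided), with the replicate number as a block and Benjamini-Hochberg adjustment over 16199 probe sets. The fit was tested on 10 simulated tables with 200 changed probe sets, made with the SDs of the pair differences shuffled among probe sets. With the block, limma at an adjusted p under 0.05 recovered 4.18% of 2-fold and 57% of 4-fold changes. Its 0 calls thus do not show that a gene was unchanged. The shuffle broke the link of spread with brightness, so these rates are not those of bright probe sets such as most cathepsins. With no changed probe set, 19% had an unadjusted p under 0.05 in limma without the block, against 5.85% with it. The same fit was run without the block, with other filters, normalizations and variance priors, by gene, and without each replicate number. Genes were named from the platform annotation, and list entries were matched by symbol. The named genes were all members, at most 4 per list with the smallest p, and the 5 nearest to 1 cathepsin. Outside that rule, chosen with values seen, are TFEB, the markers SPI1, CSF1R and AvBD6 and the markers named as below the filter. TPP2 and GGA1 are also outside it, named to describe their lists and without their values. Members and lists were chosen with earlier results of these data known. Promoter motifs and protein sequences were not analysed here.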

Additional observations from a re-analysis of the deposited data

How the results depend on the processing

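The replicate block decided the calls. With no replicate block, limma called 1120 probe sets over the array and 4 cathepsin probe sets at an adjusted p under 0.05, against 0 and 0 with it. An unadjusted p under 0.05 with the block gave 1500 and 5. Leaving out 1 replicate number gave between 0 and 12 probe sets over the array and 0 cathepsins, and the 12 came without replicate 3. No filter, a filter at a log2 value of 6, no intensity trend, arrays centred on their median, a second quantile normalization and 1 row per gene each gave 0 calls. The members under an unadjusted p of 0.05 in limma varied. CTSO had 0.0734 with no filter and 0.0517 after the second quantile normalization. Without replicate 1 only the second CTSD probe set passed (0.0346), and without replicate 2 CTSB did not. Without replicate 3 CTSB and CTSO did not pass, while CTSA (0.0202) and CTSV (0.0249) did. The fits with no block, other filters or no intensity trend keep the mean difference of a probe set, so its sign could not change there. Centring and the second quantile normalization changed no sign of a cathepsin. Leaving out replicate 1, 2 or 3 changed the sign of 1, 2 and 1 of the 12 cathepsin differences. Over these leave-outs CTSA ran from -0.0019 to 0.46 and CTSK from -0.42 to 0.23. CTSS ran from -0.081 to 0.11 and CTSV from -0.0039 to 0.43. CTSD ran from 0.45 to 0.7 and from 0.82 to 1.45 by its 2 probe sets, CTSC from 0.34 to 0.38 and CTSO from -0.72 to -0.32. Among the fits by probe set with the block, the lowest adjusted p of any cathepsin in limma was 0.281, for CTSC without replicate 3. The fit with 1 row per gene is not part of that comparison. Signal near the floor gave CTSE, CTSG and the dimmest CTSD and CTSO probe sets no usable level.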
